A study of Mus musculus with 10 samples.

Results

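Interferon-stimulated genes are switched on in cells that sense interferon, and 39 of them, found by gene symbol among the 24358 symbols of the deposited count tables, were followed across all 10 skin libraries of the study. The libraries are RNA sequencing of full-thickness dorsal skin from 5 C57Bl/6 mice with transgenic overexpression of interleukin-17C (IL-17C), a cytokine of epithelial cells, whose skin forms lesions that resemble psoriasis. Each mouse gave 1 lesional and 1 uninvolved biopsy. Mice 2392 and 2465 are labelled IL-17C+KO, where the gene knocked out besides the transgene is interleukin-6 according to the series title, and mice 2237, 2275 and 2296 are labelled IL-17C+. All groups share the strain and the transgene, so none is free of IL-17C overexpression, and which promoter and cell type drive the transgene is not stated by the labels. The mice were 10 or 14 weeks old, and since the age of each is not stated, age and genotype label cannot be told apart.

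Interferons fall into type I (alpha, beta and relatives), type II (gamma) and type III (lambda), each with its own receptor. Type I and III receptors activate a complex that contains STAT2 and IRF9 and binds the interferon-stimulated response element (ISRE), while interferon gamma acts mainly at the gamma-activated site (GAS) and through IRF1. The products block viral replication, sense viral nucleic acid, recruit T cells and prepare antigen for presentation, and in human psoriasis such genes are known to be raised in lesional skin. The members were arranged by role into 10 groups, which are the IFIT proteins, the ISG15 system, MX GTPases, the OAS family, other antiviral effectors, RNA sensors, transcription factors, guanylate-binding (GBP) and immunity-related (IRG) GTPases, chemokines of the receptor CXCR3, and antigen processing.

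The libraries held 21056850 to 31072491 counts, and 17790 to 18431 genes had a count in each. A level of 3 counts, taken as an approximate upper limit for a count of 0, corresponds to 0.0965 to 0.142 CPM (counts scaled to the size of the library). Like every limit of this kind it covers counting error only, and it is not an absolute ceiling. The targeted gene went against the label. Il6 had 300 and 315 counts in lesional libraries labelled IL-17C+KO against 18 to 69 in those labelled IL-17C+, and 55 and 71 against 4 to 9 in uninvolved libraries. Counts over a whole gene cannot show a deleted exon, so each direction between genotypes rests on the labels. Il17c had counts in every library. Summed markers of keratinocytes, the main cells of epidermis, were at 15670 to 33940 CPM in every library.

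Promoter sequence was available for 30 of the 39 members in the RefSeq table (build GRCm38.p6), and the 250 bases before each start were searched on both strands for 2 motifs. The ISRE letters were 2 copies of GAAA with any 2 bases between them (TTTC on the other strand), and the GAS letters were TTCNNNGAA, which read the same on either strand. The ISRE letters were found in 15 of 30 members, against 3.46% of all 27025 genes in the table (2.98% of its 32851 promoters). The GAS letters were found in 8 of 30 members (26.7%), against 8.13% of all genes (7.02% of promoters). Both were present in 5 members and neither in 12. In Bst2 a GAS match overlaps an ISRE match. By role, 6 of 6 GBP and IRG GTPases, 2 of 4 OAS genes and 2 of 3 IFIT genes held the ISRE letters, against 0 of 3 antigen processing genes and 0 of 2 RNA sensors. A match is a string of letters and not a shown binding site, and its absence says only that these letters are not in this window. The promoters below are of genes whose values recur in the results, with an ISRE match (Oas3, Isg15), both (Igtp), a GAS match (Irf1) and neither (Psmb9). Each runs 5′ to 3′ towards a RefSeq transcript start with matches in capitals. The Psmb9 stretch lies before a RefSeq start that is inside the gene as GENCODE M21 bounds it.
Oas3, chr5:120777660-120777909, minus strand: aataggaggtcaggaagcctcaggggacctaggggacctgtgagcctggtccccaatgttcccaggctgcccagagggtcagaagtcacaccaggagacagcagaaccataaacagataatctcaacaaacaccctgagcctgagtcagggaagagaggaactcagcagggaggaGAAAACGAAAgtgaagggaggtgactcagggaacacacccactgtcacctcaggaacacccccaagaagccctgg
Isg15, chr4:156200819-156201068, minus strand: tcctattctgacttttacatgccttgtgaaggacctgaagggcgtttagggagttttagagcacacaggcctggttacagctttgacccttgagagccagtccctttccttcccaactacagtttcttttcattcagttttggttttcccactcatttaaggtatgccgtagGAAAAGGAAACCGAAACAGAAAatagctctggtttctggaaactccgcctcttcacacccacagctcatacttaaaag
Igtp, chr11:58199306-58199555, plus strand: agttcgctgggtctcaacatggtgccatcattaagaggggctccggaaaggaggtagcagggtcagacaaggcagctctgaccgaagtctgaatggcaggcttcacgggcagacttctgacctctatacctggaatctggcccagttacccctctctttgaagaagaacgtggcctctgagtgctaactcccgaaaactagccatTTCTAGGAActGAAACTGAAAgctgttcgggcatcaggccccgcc
Irf1, chr11:53769764-53770013, plus strand: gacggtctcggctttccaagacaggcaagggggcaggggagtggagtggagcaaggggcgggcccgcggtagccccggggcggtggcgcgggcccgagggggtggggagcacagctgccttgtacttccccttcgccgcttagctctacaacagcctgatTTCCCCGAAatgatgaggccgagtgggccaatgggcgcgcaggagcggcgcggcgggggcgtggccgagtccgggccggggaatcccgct
Psmb9, chr17:34187331-34187580, minus strand: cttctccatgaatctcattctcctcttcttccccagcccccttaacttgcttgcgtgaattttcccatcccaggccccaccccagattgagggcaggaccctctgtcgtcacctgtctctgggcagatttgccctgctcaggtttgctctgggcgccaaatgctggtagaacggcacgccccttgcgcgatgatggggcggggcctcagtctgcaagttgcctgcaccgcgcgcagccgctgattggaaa
The ISRE match of Oas3 begins 75 bases before the start. Isg15 has 3 overlapping ISRE matches that begin 78, 72 and 66 bases before it. In Igtp the GAS match begins 45 bases and the ISRE match 34 bases before the start, and in Irf1, which has a further start downstream, the GAS match begins 90 bases before the one shown.

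All 10 role groups were detected, at levels that spanned from antigen processing at the top to MX GTPases and Cxcl11 at the bottom. On the length-scaled level (FPKM, mean of 10 libraries), the highest were the immunoproteasome subunits Psmb8 (39.7 FPKM) and Psmb9 (35.5 FPKM), the virion tether Bst2 (31.3 FPKM) and the peptide transporter Tap1 (25.2 FPKM). The lowest were Cxcl11 (0.0616 FPKM), Mx2 (0.198 FPKM) and Ifi44 (0.269 FPKM). Of the 39 members 38 had enough counts to be tested. The exception was Cxcl11, with 25 counts in all, at most 5 in a library and 0 in the uninvolved libraries of mice 2237 and 2296. Cxcl11 and Mx2 are annotated as polymorphic pseudogenes in GENCODE M21. The spread over libraries differed widely between members. The highest library exceeded the lowest by 17.7 times for Usp18, 16.3 times for Ifi44 (2 counts in its lowest library), 11.8 times for Cxcl10 and 11.3 times for Cxcl9, but by only 1.62 times for Irf9 and 1.68 times for Stat2. CPM values below were scaled by the TMM method, and within each label they are given in the mouse order 2392 and 2465, then 2237, 2275 and 2296.

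**Figure D1:**
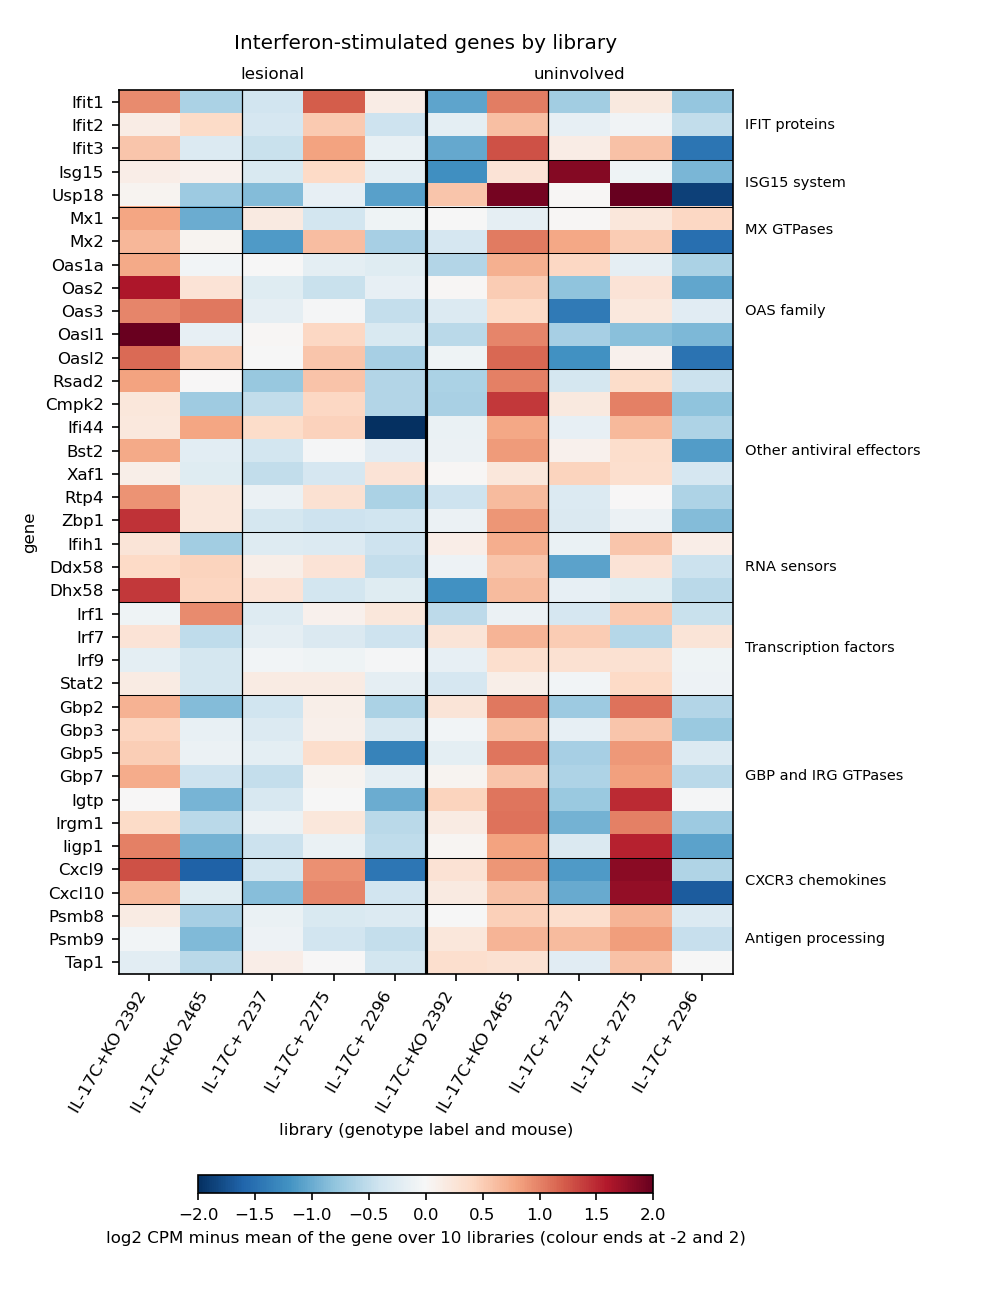
Heat map of the 38 tested genes (rows, by role) in the 10 libraries (columns), where colour is log2 CPM minus the mean of the gene over all libraries. The uninvolved libraries of mice 2465 and 2275 and the lesional library of mouse 2392 are red for most genes, and uninvolved 2296 and lesional 2465 are blue for many.

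The IFIT proteins bind viral RNA that lacks host cap marks. Ifit3, the highest of the 3 per length, had 5.32 and 2.97 CPM in lesional and 1.73 and 8.85 CPM in uninvolved skin labelled IL-17C+KO, against 2.61, 6.34 and 3.24 CPM and 4.01, 5.45 and 1.26 CPM in IL-17C+ skin. Ifit1 had 4.64 and 1.51 CPM in lesional and 1.09 and 4.94 CPM in uninvolved skin labelled IL-17C+KO, against 1.8, 5.61 and 2.65 CPM and 1.45, 2.75 and 1.36 CPM in IL-17C+ skin. Both genes were high in the lesional library of mouse 2275 and the uninvolved library of mouse 2465, and the groups overlapped. Ifit2 stayed between 3.16 and 6.78 CPM.

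Isg15 encodes a ubiquitin-like protein that is attached to other proteins, and Usp18 encodes the protease that removes it and also dampens the type I receptor. Isg15 had 6.94 and 6.66 CPM in lesional and 2.65 and 7.66 CPM in uninvolved skin labelled IL-17C+KO, against 5.04, 8.31 and 5.45 CPM and 22.5, 5.93 and 3.31 CPM in IL-17C+ skin. The value of 22.5 CPM in uninvolved skin of mouse 2237 stands far above the other 9 libraries, which reached at most 8.31 CPM. Usp18 had 3.73 and 2.13 CPM in lesional and 5.34 and 13.8 CPM in uninvolved skin labelled IL-17C+KO, against 1.92, 3.17 and 1.66 CPM and 3.64, 16.3 and 0.924 CPM in IL-17C+ skin. Its 2 highest libraries were uninvolved skin of mice 2275 and 2465, so the 2 genes of this system peaked in different libraries.

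The MX GTPases trap viral nucleocapsids, and C57BL/6 mice are known to carry defective copies. Mx1 had 1.73 and 0.444 CPM in lesional and 0.958 and 0.843 CPM in uninvolved skin labelled IL-17C+KO, against 1.11, 0.734 and 0.908 CPM and 0.992, 1.15 and 1.31 CPM in IL-17C+ skin. Mx2 had 0.716 and 0.444 CPM in lesional and 0.319 and 0.958 CPM in uninvolved skin labelled IL-17C+KO, against 0.15, 0.696 and 0.237 CPM and 0.785, 0.637 and 0.0973 CPM in IL-17C+ skin. These levels rest on 10 to 46 counts for Mx1 and 2 to 25 counts for Mx2 in a library.

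The OAS enzymes make the 2-5A messenger that activates RNase L, and the OASL proteins are their relatives. Oas1a, the highest per length, had 6.82 and 3.86 CPM in lesional and 2.65 and 6.59 CPM in uninvolved skin labelled IL-17C+KO, against 3.96, 3.48 and 3.36 CPM and 5.37, 3.5 and 2.53 CPM in IL-17C+ skin. Oas2 (chromosome 5, 120730333 to 120749853) had 8.97 and 3.51 CPM in lesional and 2.92 and 4.1 CPM in uninvolved skin labelled IL-17C+KO, against 2.43, 2.09 and 2.57 CPM and 1.61, 3.5 and 1.36 CPM in IL-17C+ skin. Oas3 (chromosome 5, 120753098 to 120777661, minus strand) had 4.03 and 4.26 CPM in lesional and 1.64 and 2.68 CPM in uninvolved skin labelled IL-17C+KO, against 1.77, 1.97 and 1.42 CPM and 0.703, 2.35 and 1.7 CPM in IL-17C+ skin. For Oas2 and Oas3 both lesional libraries labelled IL-17C+KO lay above all lesional IL-17C+ libraries. Oasl1, the lowest per length, had 2.98 and 0.621 CPM in lesional and 0.456 and 1.46 CPM in uninvolved skin labelled IL-17C+KO, against 0.72, 0.966 and 0.553 CPM and 0.413, 0.358 and 0.34 CPM in IL-17C+ skin. Oasl2 had 10.8 and 7.1 CPM in lesional and 4.61 and 11 CPM in uninvolved skin labelled IL-17C+KO, against 4.86, 7.27 and 3.08 CPM and 2.07, 5.21 and 1.7 CPM in IL-17C+ skin. The lesional library of mouse 2392 was the highest for 3 of the 5 genes and among the top 2 for 5 of 5, and the uninvolved library of mouse 2296 was the lowest for 4.

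The other antiviral effectors include Bst2 (tetherin), Zbp1, a sensor of Z-form nucleic acid that can trigger necroptosis, Rsad2 (viperin) and its neighbour Cmpk2, a nucleotide kinase. Bst2 had 32 and 16.4 CPM in lesional and 17.5 and 34.1 CPM in uninvolved skin labelled IL-17C+KO, against 14.8, 18.7 and 16.2 CPM and 20.2, 24.3 and 8.66 CPM in IL-17C+ skin. Zbp1 (chromosome 2, 173206612 to 173218923) had 9.24 and 3.91 CPM in lesional and 3.1 and 6.25 CPM in uninvolved skin labelled IL-17C+KO, against 2.61, 2.51 and 2.53 CPM and 2.73, 3.1 and 1.8 CPM in IL-17C+ skin. Lesional skin of mouse 2392 was the highest for Zbp1 and second for Bst2, and the 3 lesional IL-17C+ libraries of Zbp1 lay close together. Ifi44, the lowest per length, had 0.829 and 1.29 CPM in lesional and 0.639 and 1.26 CPM in uninvolved skin labelled IL-17C+KO, against 0.93, 1.01 and 0.079 CPM and 0.62, 1.15 and 0.438 CPM in IL-17C+ skin. Rsad2 ranged from 1.53 to 5.4 CPM and Cmpk2 from 1.99 to 9.58 CPM, both highest in uninvolved skin of mouse 2465. Rtp4 ranged from 3.28 to 9.69 CPM and Xaf1 from 4.17 to 8.02 CPM.

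The RNA sensors are the helicases Ifih1 (MDA5), Ddx58 (RIG-I) and Dhx58 (LGP2). Ifih1 had 18.1 and 9.32 CPM in lesional and 16.5 and 24.8 CPM in uninvolved skin labelled IL-17C+KO, against 12.5, 12.4 and 11.2 CPM and 13.6, 22 and 16.4 CPM in IL-17C+ skin. It was lower in the lesion of all 3 IL-17C+ mice, as 13.1% of all genes were. Dhx58 (chromosome 11, 100694884 to 100704271) had 7.2 and 3.6 CPM in lesional and 1.09 and 4.14 CPM in uninvolved skin labelled IL-17C+KO, against 3.21, 2.05 and 2.21 CPM and 2.36, 2.23 and 1.8 CPM in IL-17C+ skin. Its highest and its lowest library came from the same mouse, 2392. Ddx58 ranged from 5.25 to 16.3 CPM.

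Among the transcription factors, Irf1 mediates much of the response to interferon gamma, Irf7 amplifies type I interferon induction, and Stat2 and Irf9 are parts of the ISRE-binding complex. Irf1 had 20.6 and 42.3 CPM in lesional and 15.1 and 20.3 CPM in uninvolved skin labelled IL-17C+KO, against 18.3, 23.3 and 25.7 CPM and 17.4, 31.7 and 16.1 CPM in IL-17C+ skin. Irf7 had 16.7 and 9.68 CPM in lesional and 16.6 and 22.1 CPM in uninvolved skin labelled IL-17C+KO, against 12.2, 11.2 and 10.3 CPM and 19.6, 9.31 and 16.4 CPM in IL-17C+ skin. Stat2 had 20.8 and 14.5 CPM in lesional and 14.7 and 20 CPM in uninvolved skin labelled IL-17C+KO, against 20.7, 20.8 and 16.3 CPM and 17.9, 24.3 and 17.2 CPM in IL-17C+ skin. Irf1 was at its highest in lesional skin of mouse 2465, where 9 other members were at their lowest. Irf9 stayed between 19.3 and 31.3 CPM.

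The GBP and IRG GTPases attack the vacuoles of intracellular pathogens and are best known as targets of interferon gamma. Gbp2 had 31.6 and 10.6 CPM in lesional and 23.3 and 40.7 CPM in uninvolved skin labelled IL-17C+KO, against 14.7, 21.2 and 12.6 CPM and 11.8, 41.4 and 12.9 CPM in IL-17C+ skin. Igtp (chromosome 11, 58199556 to 58207591) had 11.5 and 5.95 CPM in lesional and 15.6 and 24 CPM in uninvolved skin labelled IL-17C+KO, against 9.12, 11.3 and 5.69 CPM and 6.82, 32.1 and 11.2 CPM in IL-17C+ skin. Gbp5, the lowest per length, had 3.43 and 2.22 CPM in lesional and 2.1 and 5.17 CPM in uninvolved skin labelled IL-17C+KO, against 2.1, 3.09 and 0.908 CPM and 1.49, 4.5 and 1.99 CPM in IL-17C+ skin. Uninvolved skin of mouse 2275 was the highest library for 4 of the 7 genes and among the top 2 for 7 of 7, and uninvolved skin of mouse 2465 was the highest for the other 3. Over all libraries Gbp3 ranged from 3.6 to 9.23 CPM, Gbp7 from 6.2 to 17 CPM, Irgm1 from 6.32 to 26.2 CPM and Iigp1 from 4.62 to 28.7 CPM.

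Cxcl9, Cxcl10 and Cxcl11 draw activated T and NK cells through CXCR3. Cxcl9 had 11.1 and 1.42 CPM in lesional and 5.56 and 8.47 CPM in uninvolved skin labelled IL-17C+KO, against 3.48, 8.58 and 1.62 CPM and 2.02, 16.1 and 2.97 CPM in IL-17C+ skin. Cxcl10 had 3.77 and 1.95 CPM in lesional and 2.65 and 3.53 CPM in uninvolved skin labelled IL-17C+KO, against 1.26, 4.68 and 1.78 CPM and 1.12, 8.04 and 0.681 CPM in IL-17C+ skin. Both were at their highest in uninvolved skin of mouse 2275 and not in a lesion. Cxcl11 had 2 and 1 counts in lesional and 5 and 5 counts in uninvolved skin labelled IL-17C+KO, against 1, 3 and 3 counts and 0, 5 and 0 counts in IL-17C+ skin.

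Psmb8 and Psmb9 are catalytic subunits of the immunoproteasome, and Tap1 carries the peptides it makes to class I molecules. Psmb8 had 50.9 and 28.6 CPM in lesional and 44.9 and 63 CPM in uninvolved skin labelled IL-17C+KO, against 40.9, 36.3 and 37.1 CPM and 57.2, 72.1 and 37.5 CPM in IL-17C+ skin. Psmb9 had 22.4 and 12.5 CPM in lesional and 27 and 37 CPM in uninvolved skin labelled IL-17C+KO, against 21.6, 17.7 and 16.5 CPM and 35.9, 41.2 and 16.8 CPM in IL-17C+ skin. Tap1 had 66.8 and 53.2 CPM in lesional and 97.8 and 96.3 CPM in uninvolved skin labelled IL-17C+KO, against 84.7, 77.6 and 59.9 CPM and 66.6, 116 and 76.9 CPM in IL-17C+ skin. For 3 of 3 genes the highest library was uninvolved skin of mouse 2275 and the lowest was lesional skin of mouse 2465. Psmb9 (chromosome 17, 34181987 to 34187764, minus strand) and Tap1 (34187553 to 34197225, plus strand) overlap at their starts, and since the strand setting of the counting is not given, reads from the overlap cannot be told apart. The same holds for other overlapping pairs, among them Dhx58 and Dhx58os, Irf7 and Phrf1, Cxcl10 and Art3, Igtp and Irgm2, and Irf9 and Rnf31, and reads of near-identical relatives such as Ifit3 and Ifit3b are uncertain as well.

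The highest values of the members lay in a few libraries of both skin types. Uninvolved skin of mouse 2465 was the highest of the 10 libraries for 14 of 38 tested members (it was the highest for 16.2% of all tested genes), uninvolved skin of mouse 2275 for 11 (7.96% of all genes) and lesional skin of mouse 2392 for 7 (7.54% of all genes). At the other end, uninvolved skin of mouse 2296 was the lowest for 14 members (6.51% of all genes) and lesional skin of mouse 2465 for 9 (19.3% of all genes). The 39 members summed to 625.5 CPM and 648.2 CPM in uninvolved skin of mice 2465 and 2275, and to 509.8 CPM in lesional skin of mouse 2392, against 324.6 to 418.4 CPM in the other 7 libraries. The role groups divided between these libraries. The OAS genes peaked mostly in lesional skin of mouse 2392, the antigen processing genes and the chemokines Cxcl9 and Cxcl10 in uninvolved skin of mouse 2275, and the GBP and IRG GTPases in uninvolved skin of mice 2275 and 2465.

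**Figure D2:**
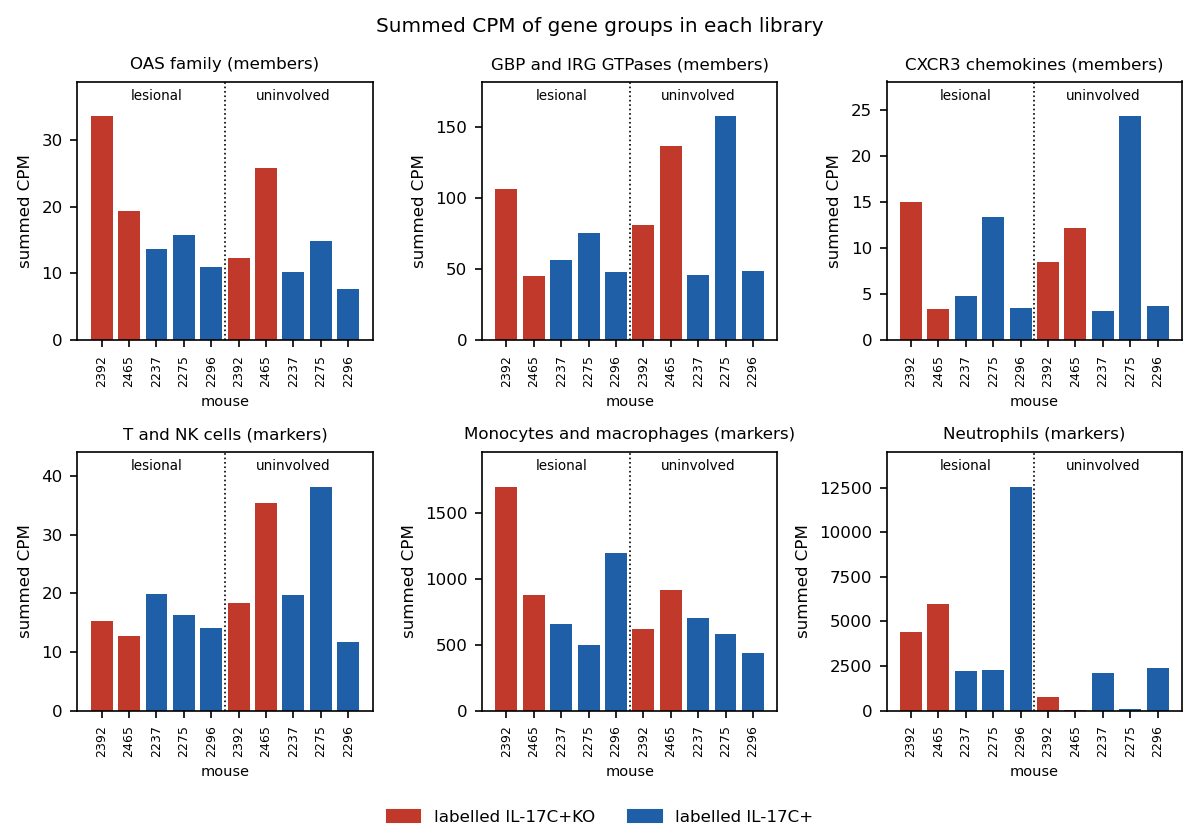
Summed CPM (y axis) of 3 role groups and 3 marker lists in each library, by mouse (x axis), with lesional libraries left of the dotted line and the label IL-17C+KO in red. The GTPase and CXCR3 chemokine sums are high in uninvolved 2275, where the T and NK cell sum is 38.23 CPM and the neutrophil sum 71.26 CPM. Most of the neutrophil sum is S100a8 and S100a9 in every library.

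Markers of other cells moved with these libraries. The 12 analysed T and NK cell markers of 15 listed summed to 35.44 CPM and 38.23 CPM in uninvolved skin of mice 2465 and 2275, against 11.72 to 19.9 CPM in the other 8 libraries, and none was at 0 throughout. Cd3g gave 11.8 and 12.9 CPM of these 2 sums. Not all markers shared the peak, since Gzmb was at its lowest in uninvolved 2465 (0.23 CPM) and Cd4 in uninvolved 2275 (0.875 CPM). The 7 neutrophil markers summed to 58.82 CPM and 71.26 CPM in uninvolved skin of mice 2465 and 2275, against 769.6 to 12550 CPM elsewhere. Most of this sum was S100a8 and S100a9 in every library. Cxcr2 and Clec4d were also lowest in these 2 libraries. Csf3r was not, at 3.38 and 3.37 CPM in uninvolved skin labelled IL-17C+KO and 2.19, 2.23 and 2.19 CPM in IL-17C+ skin. The 8 skeletal muscle markers summed to 38460 CPM and 27940 CPM in uninvolved skin of mice 2465 and 2275. They summed to 25850 CPM in uninvolved skin of mouse 2392 and to 600.2 to 10080 CPM in the other libraries. The 10 monocyte and macrophage markers were highest in lesional skin of mouse 2392, at 1696 CPM, against 433.7 to 1194 CPM in the other 9. The 6 adipocyte markers summed to 5839 CPM and 5312 CPM in uninvolved skin of mice 2465 and 2275. They summed to 5638 CPM in lesional skin of mouse 2392 and to 669.3 to 4569 CPM elsewhere. The 10 anagen hair follicle markers summed to 24.52 CPM and 15.32 CPM in uninvolved skin of mice 2465 and 2275, to 13.01 CPM in lesional and 33.3 CPM in uninvolved skin of mouse 2392, and to 980.6 to 8693 CPM in the other 6 libraries. Il17c followed the same split, at 533.8 CPM and 1415 CPM in uninvolved skin of mice 2465 and 2275 and 2346 CPM and 1939 CPM in lesional and uninvolved skin of mouse 2392, against 5322 to 15200 CPM in the other 6. The 3 libraries where the members peaked are thus among the 4 with the lowest Il17c and hair follicle sums. The part of these cells and of Il17c in the members' levels was not tested. In biopsies of bulk tissue, fewer cells of a type and less RNA per cell cannot be told apart.

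Within mice, the lesional minus uninvolved difference ran in opposite directions under the same label. In mouse 2392 the lesion was higher for 33 of 38 members, with a median difference of 0.69 log2 units, and in mouse 2465 it was higher for 3 of 38, with a median of -0.92. Over all genes the lesion was higher for 45.7% in mouse 2392 and 49.9% in mouse 2465, with medians of -0.04 and 0. Irf1, Oas3 and Ifi44 were the 3 members above 0 in mouse 2465, at 1.06, 0.65 and 0.02 log2 units. The IL-17C+ mice lay between, with 20 of 38 members higher and a median of 0.11 in mouse 2237, 10 of 38 and -0.41 in mouse 2275, and 22 of 38 and 0.2 in mouse 2296. The widest gap between these mice was that of Ifit1, with a difference of 2.01 log2 units in mouse 2392 and -1.66 in mouse 2465.

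**Figure D3:**
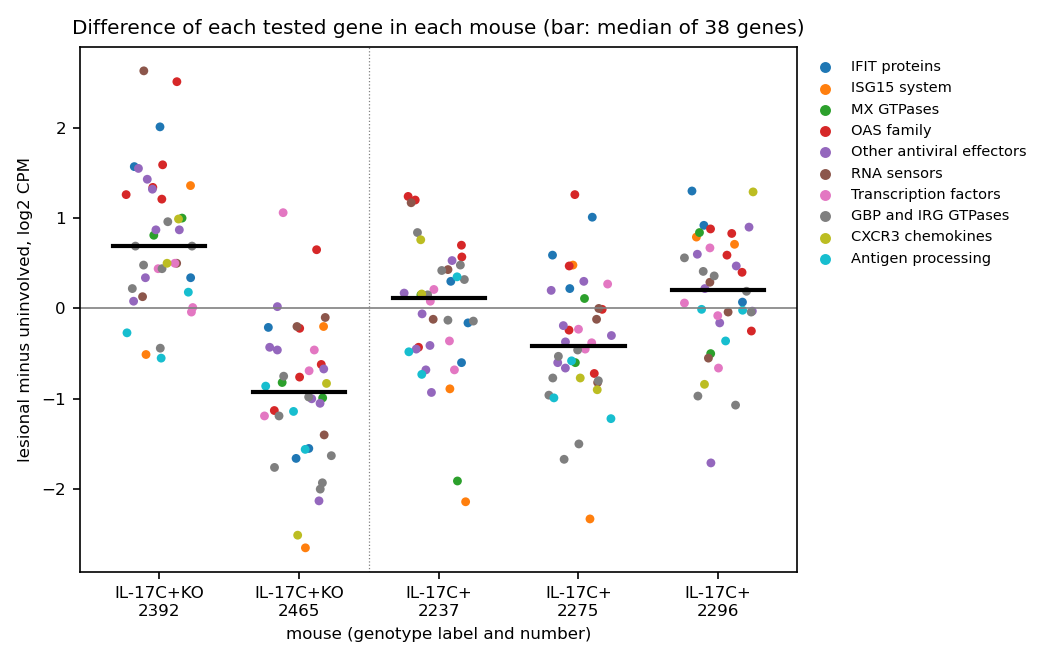
Lesional minus uninvolved log2 CPM (y axis) of the 38 tested genes in each mouse (x axis), coloured by role, with a bar at the median. The medians are 0.69 in mouse 2392, -0.92 in mouse 2465 and between -0.41 and 0.2 in the IL-17C+ mice.

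The first comparison asked how lesional differs from uninvolved skin of the same mice. Taken over all 5 mice, no member passed the threshold of 0.05 on the false discovery rate (FDR, adjusted over 16083 genes), and the members leaned to neither side as a whole. The immunoproteasome subunit Psmb9 had the smallest p and was the only member lower in the lesion of every mouse, barely so in mouse 2296 (-0.02 log2 units). Its level was 18.2 ± 4.02 CPM in lesional and 31.6 ± 9.74 CPM in uninvolved skin (SD, n = 5 each), a log2 change of -0.76 ± 0.26 (SE), with an FDR of 0.158 by edgeR's quasi-likelihood test. The GTPase Igtp followed, at 8.71 ± 2.8 CPM in lesional and 18 ± 10.2 CPM in uninvolved skin (SD, n = 5 each), a log2 change of -0.91 ± 0.36 (SE) and an edgeR FDR of 0.207. It was lower in the lesion of 4 mice and higher in mouse 2237.

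By edgeR, 0 of 38 members had an FDR under 0.05, where 0.0497% of all genes did, and DESeq2 and limma-voom called 0 members as well, of 2036 and 4 genes called in all. At an unadjusted p under 0.05 there were 2 members (5.26%), Psmb9 and Igtp, both lower, where 21.5% of all genes passed. A lower value in the lesion of every mouse was seen for 1 member (2.63%) against 9.56% of all genes, and a higher value in every mouse for 0 members against 9.2%. Both members lower at that p are 5.26%, against 11.5% of all genes. Positive changes were seen for 16 of 38 members, against 49.4% of all genes. The median change of the members was -0.1 log2 units, that of all genes -0.01, and the median standard error of a member 0.36. In the fit on FPKM values the median of all genes moved to 0.12, and that of the members to 0.03. Leaving out mouse 2392 gave a members' median of -0.3 with 9 of 38 above 0, and leaving out mouse 2465 gave 0.11 with 22 of 38.

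The role groups pointed to different sides, although none of their members passed the FDR threshold. All 5 OAS members had positive changes (median 0.56 log2 units), led by Oasl2 at 0.64 ± 0.32 and Oasl1 at 0.88 ± 0.58 (SE), each above 0 in 4 of 5 mice. Oas2 and Oas3 were above 0 in 3 of 5 mice and Oas1a, at 0.1 ± 0.35, in 2. With mouse 2392 left out, 4 of 5 OAS members had positive changes and the median was 0.35. Among OAS genes that are no members, Oas1c was lower in the lesion of every mouse, at -0.67 ± 0.24 (SE, edgeR FDR of 0.173). Oas1b was lower in every mouse but 2392, and Oas1g was lower in mice 2465, 2237 and 2275. The 3 IFIT genes were positive, with a median of 0.19, and 2 of 3 were positive without mouse 2392 or 2296. The 7 GBP and IRG GTPases had negative changes (median -0.33) and so had the 3 antigen processing genes (median -0.49). The GTPase count was 5 of 7 in the fit on FPKM and without mouse 2275 (median -0.04), and 4 of 7 without mouse 2465 (median -0.05), while the antigen processing count was 3 of 3 in each. By mouse, Gbp7 (-0.11 ± 0.3, SE) and Irgm1 (-0.23 ± 0.37) were higher in the lesion of 3 of 5. Gbp2, Gbp3, Gbp5 and Iigp1 were higher in 2 of 5 mice and Igtp in 1. Beside these groups, 9 of 11 tested T and NK cell markers were negative (median -0.64). Cd4, with the smallest p of that list, was higher in the lesion of every mouse, at 1.04 ± 0.28 (SE, edgeR FDR of 0.118). Further, 8 of 8 skeletal muscle markers were negative (median -2.93, 7 at an unadjusted p under 0.05), and 7 of 7 neutrophil markers were positive (median 3.39, 6 at that p). The part of these cells in the members' changes was not tested. Usp18 was at -1.18 ± 0.53 and Ifih1 at -0.55 ± 0.25 log2 units (SE), with edgeR FDR of 0.255 and 0.266. Irf1 was above 0 in 4 of 5 mice, at 0.37 ± 0.24.

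**Figure D4:**
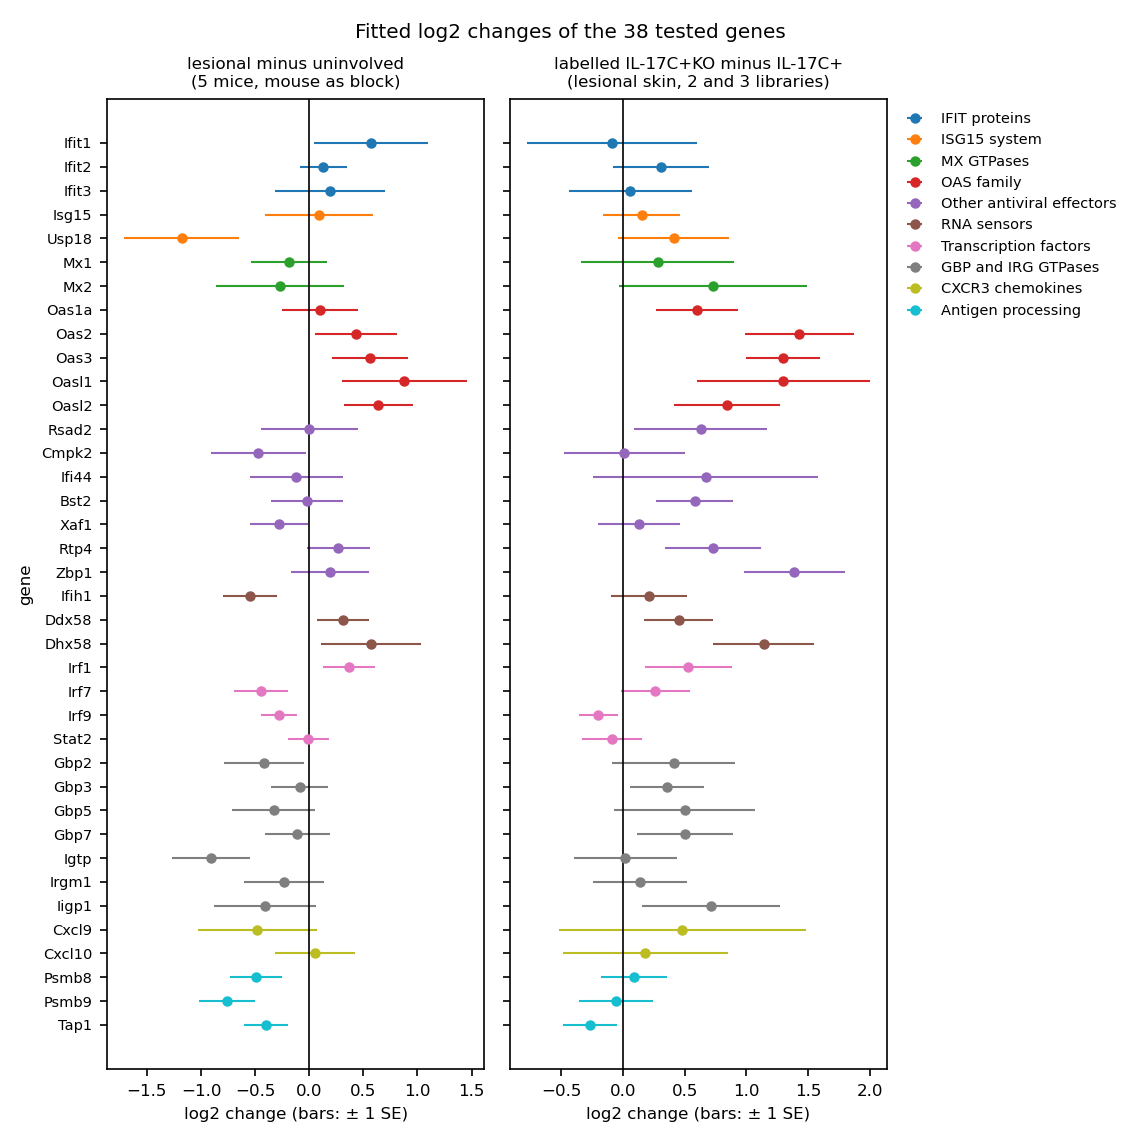
Log2 change (x axis, bars 1 SE) of each tested gene (y axis) in lesional minus uninvolved skin over 5 mice (left) and in lesional skin labelled IL-17C+KO minus IL-17C+ (right). Left, OAS genes lie right of 0 and GTPase and antigen processing genes left of it; right, 33 of 38 genes lie right of 0.

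Within the mice labelled IL-17C+KO, the same comparison gave no call among the members. Irf1 was higher in the lesion of both mice, at 31.5 ± 15.4 CPM in lesional and 17.7 ± 3.65 CPM in uninvolved skin (SD, n = 2 each), a log2 change of 0.77 ± 0.36 (SE) with an edgeR FDR of 0.419. Tap1 was lower in both, at 60 ± 9.66 CPM and 97.1 ± 1.03 CPM (SD, n = 2 each), a change of -0.69 ± 0.32 with an edgeR FDR of 0.423. Psmb9 (-0.9 ± 0.44), Igtp (-1.21 ± 0.6), Usp18 (-1.58 ± 0.87) and Irf9 (-0.35 ± 0.31) were also lower in both mice, and Oas3 (0.99 ± 0.55) and Ifi44 (0.21 ± 0.7) higher in both. The differences of Irf9 in mouse 2392 and of Ifi44 in mouse 2465 were slight, at -0.04 and 0.02 log2 units. Among members 5 were lower (13.2%) and 3 higher (7.89%) in both mice, where 35.7% and 31.4% of all genes were. By edgeR 0 of 38 members passed the FDR threshold, where 0.0124% of all genes did, and 0 had an unadjusted p under 0.05, where 13.5% of all genes had one. DESeq2 and limma-voom called 0 members. Positive changes were seen for 18 of 38 members, against 50.2% of all genes. The median was -0.04 for members and 0 for all genes, and it averaged opposite mice, since without mouse 2392 it was -0.95 with 3 of 38 members above 0, and without mouse 2465 it was 0.73 with 33 of 38.

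Within the IL-17C+ mice, Oasl2, Oasl1 and Ifit1 were higher in the lesion of all 3 mice and Psmb9, Psmb8 and Ifih1 lower, which is 7.89% of members in each direction against 12.6% and 13.1% of all genes. In mouse 2296 the differences of Psmb9 and Psmb8 were slight, at -0.02 and -0.01 log2 units. Oasl2 had the smallest p, at 5.07 ± 2.1 CPM in lesional and 2.99 ± 1.93 CPM in uninvolved skin (SD, n = 3 each), a log2 change of 0.85 ± 0.43 (SE) with an edgeR FDR of 0.795. Psmb9 was at 18.6 ± 2.66 CPM and 31.3 ± 12.8 CPM (SD, n = 3 each), a change of -0.67 ± 0.36 with the same FDR. No member was called by edgeR, DESeq2 or limma-voom, and edgeR called 0% of all genes. At an unadjusted p under 0.05 there were 0 members against 6.41% of all genes. Positive changes were seen for 15 of 38 members, against 48.5% of all genes. The median was -0.11 for members and -0.02 for all genes, and it was 0.04 without mouse 2275.

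**Figure D5:**
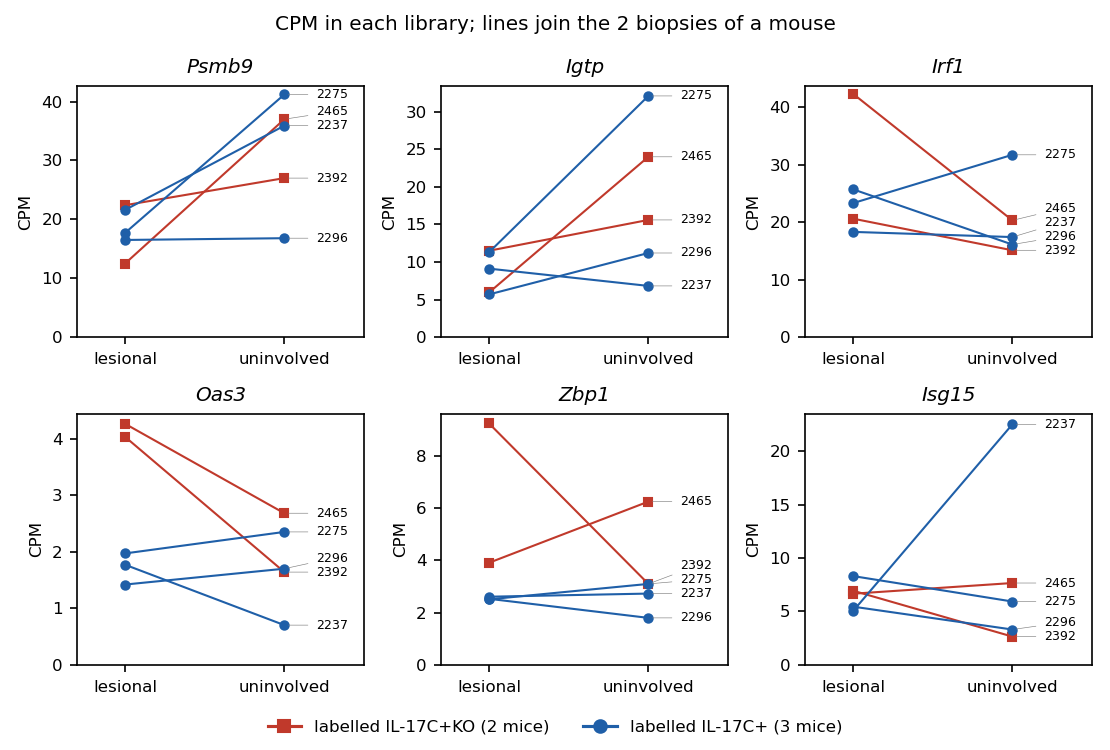
CPM (y axis) of 6 genes in lesional and uninvolved skin (x axis), with a line for each mouse and the label IL-17C+KO in red. Psmb9 is lower in the lesion of all 5 mice, though barely in mouse 2296 (16.5 and 16.8). The 2 lesional Oas3 values labelled IL-17C+KO lie at 4.03 and 4.26 above the rest, and Isg15 reaches 22.5 in uninvolved skin of mouse 2237.

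The difference between the lesional changes of the 2 labels was then tested for each gene. Irf1 had the smallest p, with a mean lesional difference of 0.75 log2 units in mice labelled IL-17C+KO and 0.101 in IL-17C+ mice, a fitted difference of 0.68 ± 0.46 (SE, edgeR FDR of 1). Next were Tap1 at -0.48 ± 0.42, Dhx58 at 1.03 ± 0.95 and Oas3 at 0.75 ± 0.72. No member was called by edgeR, DESeq2 or limma-voom, against 0% of all genes by edgeR, and 0 members had an unadjusted p under 0.05, against 1.17% of all genes. The differences of single mice did not overlap between labels for 0 members, against 4.71% of all genes in the higher and 5.71% in the lower direction. Positive values were seen for 17 of 38 members, against 50% of all genes. The median standard error of a member was 0.77 log2 units, the widest of the 6 comparisons. The members' median was -0.07, and it was -0.79 without mouse 2392 and 0.8 without mouse 2465. For Dhx58 the difference was -0.41 without mouse 2392.

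The second comparison asked how skin labelled IL-17C+KO differs from IL-17C+ skin. In lesions most members lay higher under the label IL-17C+KO, by a median of 0.41 log2 units. Of the 10 role groups the OAS family had the highest median (1.3), with members from 0.6 (Oas1a) to 1.43 (Oas2). Oas1b and Oas1c, OAS genes that are no members, overlapped between labels. Oas1g, also no member, was at 3.73 and 2.04 CPM against 1.83, 1.62 and 1.54 CPM. Oas3 was at 4.15 ± 0.161 CPM in lesions labelled IL-17C+KO (SD, n = 2) and 1.72 ± 0.278 CPM in IL-17C+ lesions (SD, n = 3), a log2 change of 1.3 ± 0.3 (SE) with an edgeR FDR of 0.579. Oas2 was at 6.24 ± 3.86 CPM and 2.36 ± 0.247 CPM, a change of 1.43 ± 0.44. Zbp1 was at 6.57 ± 3.77 CPM and 2.55 ± 0.0531 CPM, a change of 1.39 ± 0.41, and Dhx58 at 5.4 ± 2.55 CPM and 2.49 ± 0.629 CPM, a change of 1.14 ± 0.41. For these 4 genes and for Ddx58 the 2 groups did not overlap, with the label IL-17C+KO higher. For Irf9 they did not overlap in the other direction (-0.2 ± 0.16).

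By edgeR 0 of 38 members passed the FDR threshold and 0% of all genes did, while DESeq2 called 1 member, Oas3, with a log2 change of 1.28 ± 0.37 (SE) and an FDR of 0.0398, among 213 genes it called in all. Over the other alternatives the FDR of Oas3 lay between 0.317 and 0.998, and limma-voom called 0 members. At an unadjusted p under 0.05 edgeR gave 4 members (10.5%), Oas3, Zbp1, Oas2 and Dhx58, where 7.21% of all genes passed (4.67% higher, as these 4 were). Groups that did not overlap were seen for 5 members higher (13.2%) and 1 lower (2.63%), against 11.6% and 13.2% of all genes. Positive changes were seen for 33 of 38 members (86.8%) against 50.7% of all genes, whose median was 0. The direction rested on 1 mouse, since without mouse 2392 there were 17 of 38 above 0 and the median was -0.11. Oas2 was then at 0.61 and Zbp1 at 0.65 log2 units, whereas Oas3 was at 1.34.

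By role, all 5 OAS genes (median 1.3), all 7 GTPases (0.41), all 7 other antiviral effectors (0.63) and all 3 RNA sensors (0.45) had positive changes, while 2 of 3 antigen processing genes were negative (-0.06). With median-of-ratios scaling 6 of 7 other effectors were positive, and in the fit on FPKM 6 of 7 GTPases and 6 of 7 other effectors were. Without mouse 2392 the positive counts were 4 of 5 OAS genes (median 0.52), 2 of 7 GTPases (-0.4) and 5 of 7 other effectors (0.18). Of the markers, 10 of 10 for monocytes and macrophages were positive, 4 of them at an unadjusted p under 0.05, with sums of 1696 and 873.2 CPM in lesions labelled IL-17C+KO against 653.4, 500.2 and 1194 CPM in IL-17C+ lesions. The 6 endothelial markers were positive too, at 400 and 352.4 CPM against 158.3, 249.7 and 185.3 CPM. Of 9 dendritic cell markers 7 were positive and 2 negative (median 0.28), and all 10 anagen hair follicle markers were negative (median -2.27). Hair follicle sums overlapped, at 13.01 and 1805 CPM in lesions labelled IL-17C+KO against 5776, 6712 and 980.6 CPM in IL-17C+ lesions. The part of these cells in the members' values was not tested.

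In uninvolved skin the members also lay mostly higher under the label IL-17C+KO, by a median of 0.34 log2 units against -0.01 for all genes. Oasl2 had the smallest p, at 7.78 ± 4.49 CPM in skin labelled IL-17C+KO (SD, n = 2) and 2.99 ± 1.93 CPM in IL-17C+ skin (SD, n = 3), a log2 change of 1.37 ± 0.62 (SE) with an edgeR FDR of 0.852. Oasl1 was at 0.956 ± 0.707 CPM and 0.371 ± 0.038 CPM, a change of 1.36 ± 0.65, and it was the 1 member (2.63%) whose groups did not overlap in this direction, where 11.6% of all genes did. Zbp1 was at 0.87 ± 0.48, Oas2 at 0.69 ± 0.54 and Isg15 at -1.04 ± 0.88 log2 units. Mx1 was lower without overlap, as 9.32% of all genes were, at 0.9 ± 0.0812 CPM and 1.15 ± 0.161 CPM.

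No member passed the FDR threshold in uninvolved skin by edgeR, DESeq2 or limma-voom, and 0% of all genes did by edgeR. By edgeR 0 members had an unadjusted p under 0.05, against 3.74% of all genes. Positive changes were seen for 28 of 38 members (73.7%) against 48.8% of all genes. Here the direction rested on mouse 2465, since without it 11 of 38 members were above 0 and the median was -0.24. Without mouse 2275 the median was 0.83. All 5 OAS members were positive (median 0.69), and 4 of 5 without mouse 2465 (0.27). Oas1b, which is no member, was lower without overlap, as 9.32% of all genes were, at 0.547 and 1.42 CPM against 2.56, 1.79 and 2.19 CPM. Oas1c and Oas1g, also no members, overlapped between labels. The 10 monocyte and macrophage markers were positive as well, 3 of them at an unadjusted p under 0.05. Their sums overlapped, at 614.5 and 911.8 CPM under the label IL-17C+KO against 701, 582.3 and 433.7 CPM under IL-17C+. The 6 endothelial markers were positive, at 336.4 and 388.8 CPM in uninvolved skin labelled IL-17C+KO against 75.83, 268.7 and 153.1 CPM in IL-17C+ skin. The 8 skeletal muscle markers were positive with a median of 1.19 log2 units. The muscle sums overlapped, at 25850 and 38460 CPM against 5106, 27940 and 10080 CPM. The 10 anagen hair follicle markers were negative, with a median of -6.67 log2 units and 9 of 10 at an unadjusted p under 0.05, the widest marker shift between labels. Their sums nevertheless overlapped, at 33.3 and 24.52 CPM under the label IL-17C+KO against 8693, 15.32 and 1683 CPM under IL-17C+. The lowest of these sums was that of IL-17C+ mouse 2275. The part of these cells in the members' values was not tested.

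Upstream of the members, the interferons themselves were almost absent from the counts. Of 21 listed ligand genes, 18 had 0 counts in every library, among them Ifnb1 and the interferon alpha genes. The approximate upper limit for a count of 0 is 0.0965 to 0.142 CPM in a library. The alpha genes are near-identical copies, and whether reads shared between copies were counted is not stated. Ifng, the interferon of T and NK cells, had 18 counts in all, with 0 and 3 in lesional and 0 and 2 in uninvolved skin labelled IL-17C+KO, against 6, 3 and 1 in lesional and 0, 3 and 0 in uninvolved IL-17C+ skin. Ifnk, an interferon of keratinocytes, had 2 counts, both in lesional skin of mouse 2237. Ifnz had 26 counts, 1 to 5 in each library. No ligand had enough counts to be tested.

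The 6 interferon receptor genes were all measured and none passed the FDR threshold in any of the 6 comparisons by edgeR. At an unadjusted p under 0.05 there were 2 in lesional against uninvolved skin over 5 mice, Ifnar1 (0.37 ± 0.14 log2 units) and Ifnar2 (0.46 ± 0.17), which encode the type I receptor and were higher in the lesion of all 5 mice, where 21.5% of all genes passed that p. In lesions Ifnar1 was at 67.7 ± 2.7 CPM under the label IL-17C+KO (SD, n = 2) and 49.6 ± 3.2 CPM under IL-17C+ (SD, n = 3), a change of 0.48 ± 0.15 with an edgeR FDR of 0.594. In the list of signalling and feedback genes, Socs3, a feedback inhibitor of cytokine signalling that also answers to interleukin-6 family cytokines, was at 133 ± 87 CPM in lesional and 54.4 ± 30.7 CPM in uninvolved skin (SD, n = 5 each), a change of 1.25 ± 0.4 with an edgeR FDR of 0.146.

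Of 15 genes that sense nucleic acid and induce interferon, the DNA-sensing adaptor Tmem173 (STING) had the smallest p in 4 of the 6 comparisons. Tmem173 had 36.5 and 33.6 CPM in lesional and 14.2 and 14.4 CPM in uninvolved skin labelled IL-17C+KO, against 14, 15.2 and 15.8 CPM and 6.61, 13 and 9.24 CPM in IL-17C+ skin. Both lesional libraries labelled IL-17C+KO lay above the other 8. The change between labels in lesions was 1.26 ± 0.16 (SE, edgeR FDR of 0.465), and the lesional change over 5 mice was 0.94 ± 0.21 (edgeR FDR of 0.0978), so neither was called.

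A further 38 interferon-stimulated genes that are no members were tested in the same fits. In lesions 32 of 38 had positive changes under the label IL-17C+KO (median 0.52), against 50.7% of all genes, and 8 of them had an unadjusted p under 0.05, against 7.21% of all genes. In uninvolved skin 31 of 38 were positive (median 0.38), against 48.8% of all genes, with 0 at that p. Whether these directions also rest on 1 mouse was not tested for this list. Over 5 mice 20 of 38 were positive in the lesion (median 0.1), against 49.4% of all genes. Of 25 genes for interferon gamma responses and for class I and II presentation, 24 were tested. In the lesion over 5 mice 21 were negative and 3 positive (median -0.29), where 49.4% of all genes were positive. At an unadjusted p under 0.05 there were 3 lower and 1 higher, where 11.5% of all genes were lower. In mouse 2237 Cd74 (304 against 152 CPM) and B2m (1220 against 767 CPM) were higher in the lesion. Psme1 (87.1 against 152 CPM) and H2-Ab1 (217 against 237 CPM) were lower there. Whether the negative direction rests on 1 mouse was not tested for this list. No gene of either list passed the FDR threshold by edgeR.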

How the data were processed

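RNA sequencing of full-thickness dorsal skin was run on the Illumina Genome Analyzer IIx, per the labels. Per the submitters' processing notes, cutadapt 1.6, TopHat2 2.0.12, HTSeq and Cufflinks 2.2.1 were used with the mouse build mm10, while their settings, the annotation and how strand and shared reads were treated are not stated there. The authors deposited for each library raw read counts per gene and FPKM values per gene (fragments scaled by transcript length and depth), and both were used as deposited.

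Libraries were grouped by genotype label and skin type. Counts were fitted in R 4.3.3 with edgeR 4.0.16 (quasi-likelihood F test, TMM scaling, genes kept by filterByExpr with a minimum count of 10, Benjamini-Hochberg FDR over 16083 genes, or 16082 and 16079 between labels within lesional and uninvolved skin). Lesional comparisons used all 10 libraries with mouse as a block, since the design pairs 2 biopsies of each mouse. Deviations of the 2 biopsies of a mouse from their group means correlated at -0.071 in mice labelled IL-17C+KO and at -0.122, 0.034 and -0.0694 in IL-17C+ mice, and the pairing was taken from the design and not from these values. Within-mouse differences used log2 CPM (prior count 2). Alternatives were median-of-ratios scaling, no filter, DESeq2 1.42.0, limma-voom and limma 3.58.1 on log2(FPKM + 0.1), other designs, and each mouse left out.

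The members, their role groups and the lists were chosen with earlier results of these data known. Values in every library are given for the 4 members with the smallest p in each comparison, those past the FDR threshold, the highest and lowest by FPKM of each role group and some members named beforehand by role. Coordinates are from GENCODE M21 (GRCm38) and promoters from RefSeq (GRCm38.p6). Promoters of the other 9 members were not used here. One gene of the signalling list is not reported here.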

Additional observations from a re-analysis of the deposited data

How the results depend on the processing

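No member passed an FDR of 0.05 in any of the 6 comparisons under the alternatives run, except Oas3 by DESeq2 in lesional skin between labels, which made 1 member called. Single values were followed only for the 4 members with the smallest p in each comparison, and none of these was called in the main fit. Under the alternatives 270 of these values kept their direction and side of the threshold. Dhx58 in the difference of the lesional effects reversed to -0.41 without mouse 2392 (2.54 without mouse 2465). The members' median change with 1 mouse left out ran from -0.79 to 0.8 for that difference, from -0.11 to 0.63 between labels in lesional skin and from -0.24 to 0.83 in uninvolved skin. The number of members at an unadjusted p under 0.05 was unstable. Over the 6 comparisons it stayed at or near its main value under 48 alternatives and moved under 20. Counts of all genes called moved more. DESeq2 called 247 genes in IL-17C+ mice, 1157 in mice labelled IL-17C+KO, 6 for the difference, 2036 over 5 mice, and 213 and 11 between labels in lesional and uninvolved skin, against 0, 2, 0, 8, 0 and 0 by edgeR. Without the filter the counts were 5 in mice labelled IL-17C+KO, 15 over 5 mice and 1 between labels in lesions, and limma-voom gave 4 over 5 mice. With no replicate block, which drops the pairing by mouse, the count was 0 in mice labelled IL-17C+KO and 891 over 5 mice, and with libraries of that label alone it was 0. With each mouse left out, the counts ran from 0 to 3 in mice labelled IL-17C+KO, from 0 to 1238 over 5 mice (1238 without mouse 2237) and from 0 to 226 in uninvolved skin (226 without mouse 2275). The cause was not tested. With 2 and 3 mice a label, number of mice and low counts (Cxcl11, Mx2, Ifi44) limit what could be called.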
